A study of Mus musculus with 9 samples.

Results

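Brain cells sorted as microglia and divided by surface Ly6C were compared on gene expression arrays. The comparison rests on 3 arrays of Ly6C-high and 3 arrays of Ly6C-low microglia, chosen by their titles, which are 6 of the 9 arrays of the series. The other 3 arrays hold spleen monocytes and appear below as reference levels. Cells of all groups came from wild type C57BL/6 mice of a specific pathogen-free colony, and the labels name no transgene, deletion or drug treatment. After perfusion, brains were digested with collagenase and DNase, cells were taken from a Percoll gradient of 40% and 80%, and the sort used antibodies to MHC class II, Ly6C, F4/80, CD11b and CD45. The labels call the Ly6C-high cells MgSCs and the Ly6C-low cells bulk microglia cells, and the series title speaks of a specialized subset from which microglia are maintained and regenerated. The sources used here do not give ages, sexes, sort gates or the number of animals behind an array. Whether replicates are separate animals is not said in the labels, and p-values then reflect the variation among these samples alone, which may be technical.

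Microglia are the resident macrophages of the brain. They depend on signals through the receptor Csf1r, carry purine and complement receptors with which they sense injury, and clear dying cells and debris. Brain capillaries are lined by endothelial cells whose tight junctions and transporters form the blood-brain barrier, a state that Wnt signals through beta-catenin maintain. Ly6C is known as a surface antigen of inflammatory monocytes and also of brain endothelium.

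All levels are log2 intensities as deposited, in which a step of 1 is a 2-fold change. Values are written in the order replicate 1, 2 and 3 of the Ly6C-high arrays, "against" replicates 1, 2 and 3 of the Ly6C-low arrays, and monocyte levels are means ± SD (n = 3). Differences are Ly6C-high minus Ly6C-low on the log2 scale, ± the standard error. A gene was called higher or lower at an adjusted p under 0.05 in a limma fit of these 6 arrays over 19937 genes, and "rose" and "fell" are used of called genes. The number of arrays limits the precision.

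Replicates of the Ly6C-high group varied more than those of the Ly6C-low group, with a median SD per gene of 0.27 against 0.14. Among 9767 genes whose Ly6C-high mean was at or above the median, replicate 1 was at least 1 log2 unit below both other arrays of its group in 840 genes, and replicate 2 at least 1 unit above both others in 452. In the Ly6C-low group no such number was above 112 of 9793 genes. Ly6C-high replicate 2 was high in classical monocyte markers, of which the mean over 13 genes was 7.69, 10.03 and 6.83 against 6.58, 6.62 and 6.97, and 10.5 to 10.8 in spleen monocytes. Ly6C-low replicate 3 had the highest mean of 15 neutrophil markers among the 6 arrays (6.04, 7.25 and 6.04 against 6.46, 6.69 and 8.70). Endothelial markers also differed within the Ly6C-low group, where the mean of 17 genes was 7.40, 6.90 and 6.23, with monocytes at 6.10 to 6.18.

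**Figure D1:**
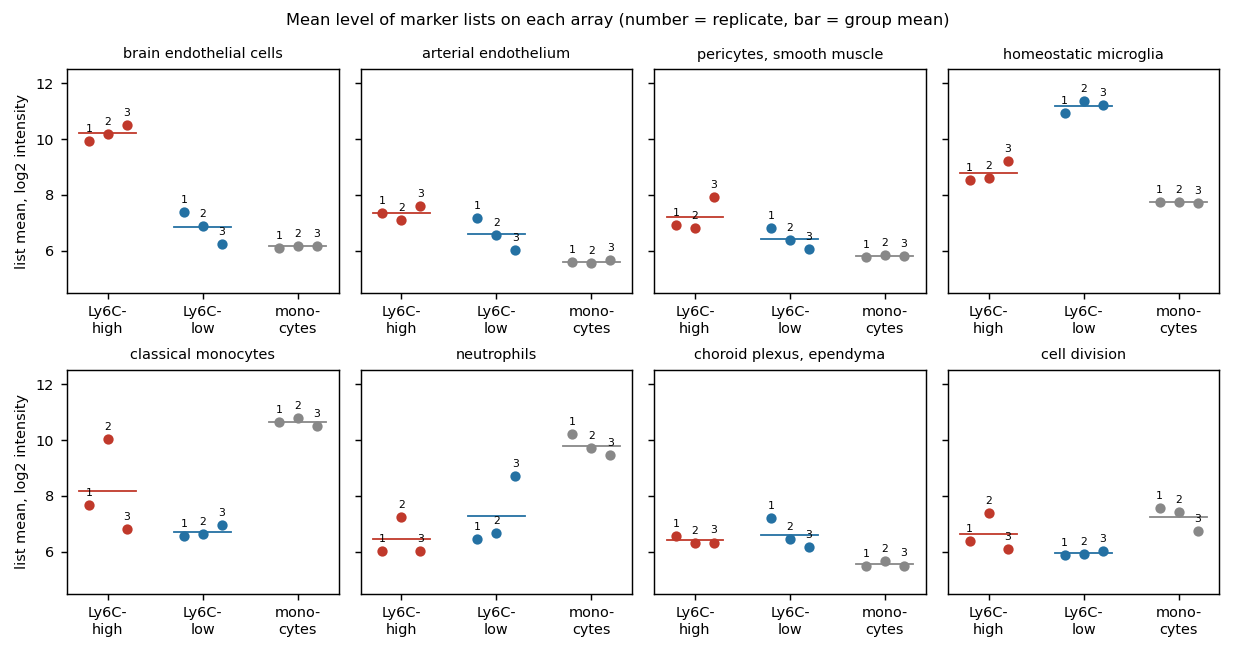
Mean log2 intensity of 8 marker lists on each of the 9 arrays, with 1 point per array, the replicate number beside it and a bar at the group mean. The endothelial and microglial lists separate the Ly6C-high from the Ly6C-low arrays, the arterial list overlaps, and the classical monocyte list reaches 10.03 on Ly6C-high replicate 2.

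RNA of the sex chromosomes gave mixed patterns. Xist, the RNA that silences an X chromosome in females, was 9.19, 4.43 and 8.58 against 9.97, 10.76 and 4.26. Eif2s3y, a gene of the Y chromosome, was 5.69, 8.12 and 7.92 against 7.83, 7.23 and 8.78. Ly6C-high replicate 2 and Ly6C-low replicate 3, whose descriptions share the number 11, carried Eif2s3y with Xist near its lowest level. In spleen monocytes Xist was 4.13, 4.19 and 10.28 and Eif2s3y 8.70, 8.74 and 4.03, so that no array was high in both. None of the 4 sex-linked genes measured was called, and the part of sex in other differences was not tested.

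**Figure D2:**
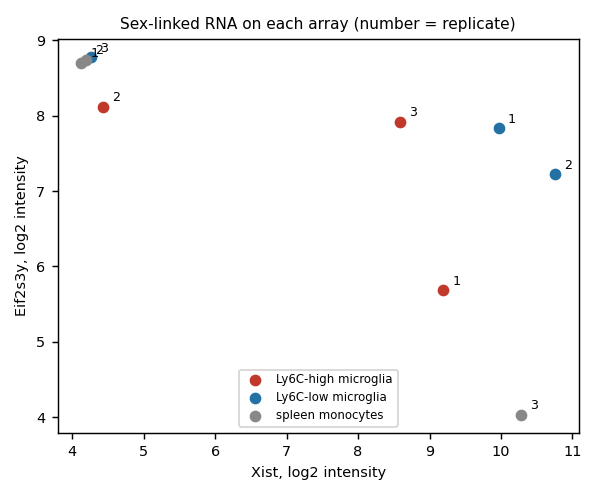
Xist against Eif2s3y, in log2 intensity, on each of the 9 arrays (numbers are replicates). Ly6C-high replicate 3 and Ly6C-low replicates 1 and 2 are high on both axes, and the monocyte arrays are high on one of them.

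Transcripts of the sort antigens were examined first. A probe set shared by Ly6c1 and Ly6c2 read 11.85, 12.03 and 12.03 against 9.87, 8.79 and 7.25, and its difference of 3.33 ± 0.64 passed in a fit over all probe sets (adjusted p = 0.0404), in which 5.91% were called. A second shared probe set, with 12.40, 12.43 and 12.50 against 10.39, 8.94 and 7.07, differed by 3.64 ± 0.80 and did not pass (adjusted p = 0.0603). Both were higher on every Ly6C-high array, and the Ly6C-low arrays spread over more than 2 units. The macrophage antigens ran the other way. Adgre1, which encodes F4/80, fell (6.07, 6.73 and 7.31 against 9.97, 10.48 and 10.10). Itgam, which encodes CD11b, fell as well (7.77, 9.26 and 8.82 against 11.52, 11.44 and 11.36). Ptprc, which encodes CD45, was 8.02, 9.99 and 7.65 against 9.68, 10.15 and 10.23, and its groups overlapped (adjusted p = 0.212). Ptprc was called lower without Ly6C-high replicate 2 (adjusted p = 0.00715). The MHC class II gene H2-Ab1 was 6.43, 6.24 and 6.22 against 7.17, 7.17 and 7.08, a call that rested on a small difference (-0.84 ± 0.12). In fits with 1 array left out, the call was lost for H2-Ab1 (without Ly6C-low replicates 2 or 3, adjusted p up to 0.0611).

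The groups differed in 2038 of 19937 genes, which is 10.2% of all genes: 605 were higher (3.03%) and 1433 lower (7.19%) in Ly6C-high microglia. Of these, 1513 differed by at least 2-fold, 502 higher and 1011 lower. Large rises outnumbered large falls. Differences of at least 8-fold were found for 94 higher and 52 lower genes, and of at least 16-fold for 18 higher and 2 lower genes. The share of calls that were higher was 29.7% on the deposited values, 40.3% after quantile normalization and 41.9% after cyclic loess. The median difference of all genes was 0.05. The count was 722 in the fit that left out Ly6C-low replicate 2, and 722 again with replicate 3 of that group left out instead. A fit of 4 arrays, with the arrays highest in monocyte and in neutrophil markers (Ly6C-high replicate 2, Ly6C-low replicate 3) both left out, called 460 genes. In 12.9% of all genes every Ly6C-high array was above every Ly6C-low array, and in 17.2% every one was below. These shares, and the 3.03% and 7.19% called, are the background for the counts of list members below. For 4961 genes (24.9%) the 95% interval of the difference lay within 0.5 of 0, and 1100 of these were among the 9942 genes at or above the median level. Without Ly6C-high replicate 1 the number of such intervals was 7847, with Ly6C-high replicates 2 and 3 left out in turn it was 3302 and 3096, and with Ly6C-low replicates 1, 2 and 3 left out in turn it was 2696, 2279 and 2221.

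Car4 and Emcn led the genes that rose. Car4, a membrane carbonic anhydrase of capillaries, stood at 11.33, 11.64 and 11.50 against 6.50, 5.71 and 5.27, a 50.7-fold difference (5.66 ± 0.31, adjusted p = 0.000713). Emcn, the endothelial sialomucin endomucin, was 11.02, 11.13 and 11.48 against 6.28, 6.22 and 5.58 (5.18 ± 0.23, adjusted p = 0.000712). Neither came near overlap between the groups, and the Ly6C-low arrays lay between the Ly6C-high arrays and the monocytes (5.17 ± 0.04 and 5.03 ± 0.19). Itm2a, a membrane protein of vessels and other tissues, was 11.32, 11.22 and 11.58 against 7.17, 6.58 and 5.28. Slco1a4, an organic anion carrier, was 11.32, 11.16 and 11.47 against 7.67, 6.60 and 4.61. In both, Ly6C-low replicate 1 was the highest of its group and replicate 3 the lowest. This is also the order of the endothelial list on these arrays, of which Slco1a4 is itself a member. Several genes with large rises were carried by monocytes too. Ctla2a, a cysteine protease inhibitor, was 9.76, 9.72 and 10.28 against 6.30, 4.95 and 4.04, with monocytes at 8.90 ± 0.23. Pglyrp1, a peptidoglycan recognition protein, was 10.92, 10.79 and 11.27 against 7.14, 6.64 and 7.90, with monocytes at 10.17 ± 0.25. Gng11, a G protein chain, was 9.86, 9.86 and 10.21 against 7.05, 5.39 and 5.21, with monocytes at 8.21 ± 0.29. Other large rises of genes known from endothelium were those of the adhesion receptors Adgrf5 (difference 4.16) and Adgrl4 (4.06), the junction protein Jcad (3.92), Nostrin, which traffics endothelial nitric oxide synthase (3.87), and the VEGF receptor Flt1 (3.84). Sema3c, a guidance signal, was 8.87, 9.61 and 9.66 against 5.32, 5.16 and 4.56. The small nucleolar RNA Snord35b was 10.90, 9.73 and 10.59 against 6.42, 5.21 and 5.44. With 5 arrays in the fit, the call did not hold for Adgrl4 (without Ly6C-low replicate 2, adjusted p up to 0.0566).

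Gpr84 and Gal3st4 led the genes that fell. Gpr84, a receptor of medium-chain fatty acids, stood at 5.72, 6.64 and 7.11 against 10.34, 11.10 and 10.83, 19.3-fold lower (-4.27 ± 0.38, adjusted p = 0.00207). Gal3st4, a sulfotransferase, was 5.18, 5.67 and 5.55 against 9.08, 9.81 and 9.52, 16-fold lower (-4.003 ± 0.23, adjusted p = 0.000713). For both genes more than 3 units lay between the nearest arrays of the groups. Tagap, a GTPase-activating protein of activated T cells, was 5.88, 5.70 and 7.18 against 9.99, 10.25 and 10.36. Blnk, an adaptor of B cells and macrophages, was 6.09, 6.25 and 7.61 against 9.78, 10.43 and 10.56. The interleukin-10 receptor chain Il10ra fell evenly (7.46, 7.83 and 7.35 against 10.86, 11.33 and 11.14, -3.56 ± 0.19). These 3 genes belong to immune signalling, and each had its groups at least 2 units apart. Lpcat2, an enzyme of lipid mediator synthesis, was 7.05, 7.93 and 8.37 against 11.17, 11.39 and 11.30. Gpr165, an orphan receptor, was 7.10, 7.27 and 8.08 against 10.24, 11.29 and 11.10, with monocytes at 5.34 ± 0.20. The inhibitory receptor Lair1 was 6.91, 7.21 and 8.04 against 10.51, 11.08 and 11.24, with monocytes at 8.42 ± 0.22. In these last 3, Ly6C-high replicate 3 was the highest array of its group. Retnlg, a gene of neutrophils, was 5.97, 5.33 and 5.24 against 8.02, 9.01 and 11.002. It was highest on the Ly6C-low array with the highest neutrophil list, of which it is itself a member. Leaving out 1 array ended the call of Pde3b, P3h2 and Pon3 (without Ly6C-low replicates 2 or 3, adjusted p up to 0.0705) and of Mgat4a and C3ar1 (without Ly6C-low replicates 1, 2 or 3, adjusted p up to 0.102). An adjusted p above 0.05 with 1 array left out was found for Retnlg (without Ly6C-high replicates 1, 2 or 3 or Ly6C-low replicate 2, adjusted p up to 0.0822) and for Tubgcp5 (without Ly6C-high replicate 1 or Ly6C-low replicate 3, adjusted p up to 0.0611). Without 1 of the 6 arrays, no call was made for Hpgds (without Ly6C-high replicate 1 or Ly6C-low replicates 1, 2 or 3, adjusted p up to 0.0986) and for Snord118 (without Ly6C-low replicate 3, adjusted p up to 0.0534).

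**Figure D3:**
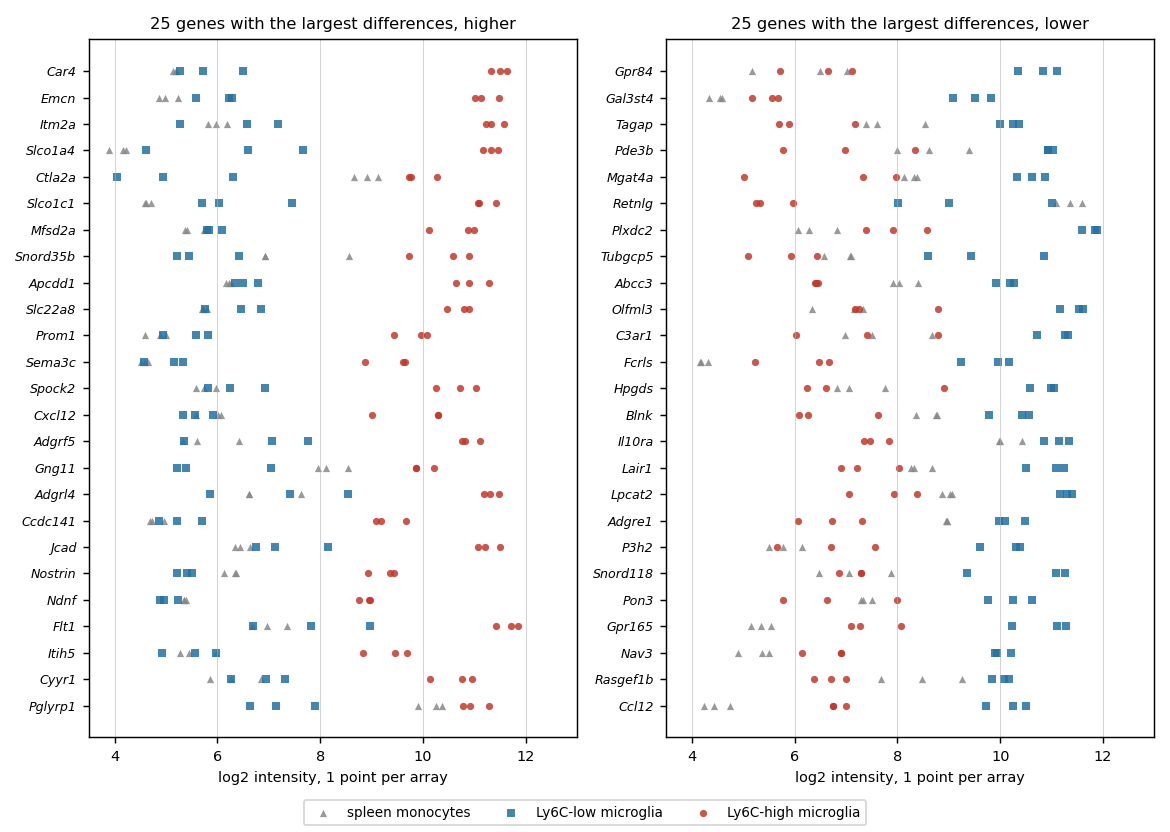
Log2 intensity of the 25 genes with the largest rises and the 25 with the largest falls, with 1 point per array (circles Ly6C-high, squares Ly6C-low, triangles spleen monocytes). The Ly6C-high and Ly6C-low points do not overlap for any of them, as the rule that chose the genes required, and the monocyte points of Ctla2a and Pglyrp1 lie nearer the Ly6C-high points.

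Promoters are shown for Itm2a, Cxcl12, Tagap and C3ar1, whose RefSeq promoters on GRCm38.p6 each held one of 6 searched motifs. These genes are among the 25 largest differences in their direction. They are examples, and genes of larger difference whose promoters hold a motif may not be shown. Each promoter shown runs 5′ to 3′ on the strand of the gene, from 250 bases before to 50 after its start. Capitals mark the motif. Itm2a lies on the minus strand at chrX:107403311-107403610 and holds the GATA motif AGATAAG read on the opposite strand. Cxcl12 lies on the plus strand at chr6:117168285-117168584 and holds the TCF/LEF motif CTTTGATC, also on the opposite strand. Tagap lies on the plus strand at chr17:7925750-7926049 and holds the PU.1 motif GAGGAAGT on its own strand. C3ar1 lies on the minus strand at chr6:122856108-122856407 and holds the GATA motif on the opposite strand.
Itm2a: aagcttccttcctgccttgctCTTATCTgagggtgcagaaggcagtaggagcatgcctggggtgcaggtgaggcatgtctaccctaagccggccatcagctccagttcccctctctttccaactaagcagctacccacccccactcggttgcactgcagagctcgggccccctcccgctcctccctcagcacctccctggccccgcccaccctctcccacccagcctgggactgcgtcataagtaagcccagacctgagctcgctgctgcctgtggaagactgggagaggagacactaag
Cxcl12: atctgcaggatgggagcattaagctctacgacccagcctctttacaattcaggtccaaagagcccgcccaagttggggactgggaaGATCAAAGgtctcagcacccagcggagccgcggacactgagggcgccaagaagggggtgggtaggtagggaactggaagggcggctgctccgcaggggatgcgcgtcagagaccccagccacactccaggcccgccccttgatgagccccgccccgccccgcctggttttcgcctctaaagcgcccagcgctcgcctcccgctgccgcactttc
Tagap: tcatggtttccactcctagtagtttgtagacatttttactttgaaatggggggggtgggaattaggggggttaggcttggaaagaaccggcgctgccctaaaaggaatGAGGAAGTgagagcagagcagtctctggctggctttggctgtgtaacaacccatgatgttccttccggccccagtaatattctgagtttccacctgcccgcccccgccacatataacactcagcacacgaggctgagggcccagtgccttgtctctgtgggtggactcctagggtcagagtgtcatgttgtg
C3ar1: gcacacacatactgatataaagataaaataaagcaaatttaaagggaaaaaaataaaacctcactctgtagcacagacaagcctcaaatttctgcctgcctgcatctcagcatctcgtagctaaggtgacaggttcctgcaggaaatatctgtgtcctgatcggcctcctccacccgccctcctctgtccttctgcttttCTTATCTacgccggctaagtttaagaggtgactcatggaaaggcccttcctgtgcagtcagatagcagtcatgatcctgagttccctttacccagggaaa

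Over all genes, 15561 promoters of this length were matched, 379 of genes that rose and 817 of genes that fell at least 2-fold. Motifs were searched as exact letters on both strands. The PU.1 motif GAGGAAGT, read by a founding factor of the myeloid lineage, was in 2.74% of all promoters, 2.11% of those of higher genes and 5.39% of those of lower genes. The CLEAR motif TCACGTGA of lysosomal genes was in 1.36% of all, 0.264% of higher and 2.33% of lower promoters, which is 1 higher and 19 lower promoters. The ETS motif CCGGAAGT was in 5.60%, 2.37% and 6.36% in the same order. The ETS and PU.1 motifs share the core GGAAGT. The TCF/LEF motif CTTTGATC, read by factors of the Wnt pathway, was in 0.803%, 1.32% and 0.490%, which is 5 higher and 4 lower promoters. The GATA motif AGATAAG was in 2.61%, 2.64% and 1.59%, and the interferon factor motif, GAAA repeated after 2 bases of any kind, in 3.32%, 4.49% and 3.55%. The median number of CpG pairs was 15 over all promoters, 19 for higher and 20 for lower genes. These shares describe letters in the windows, and no test was made of them.

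The 17 measured markers of brain endothelium all rose (median difference 3.38), and 15 of 17 markers of homeostatic microglia fell (median -2.59). The mean of the endothelial list was 9.92, 10.20 and 10.52 against 7.40, 6.90 and 6.23, and that of the microglial list 8.53, 8.60 and 9.23 against 10.93, 11.35 and 11.23, with monocytes at 7.73 to 7.76. The groups did not overlap in either list mean. In bulk RNA, fewer cells of a type and less RNA per cell cannot be told apart. These markers move with the vessel and macrophage genes described below, and their part in those results was not tested. On the Ly6C-high arrays the microglial mean was thus between the Ly6C-low arrays and the monocytes. Tmem119, a surface marker of microglia, was 8.23, 8.47 and 9.32 against 11.58, 12.06 and 12.18, with monocytes at 6.24 ± 0.21. Sall1, the factor of microglial identity, was 7.78, 7.21 and 8.21 against 10.41, 10.50 and 10.44, with monocytes at 5.89 ± 0.19. The markers that did not pass were Sparc and Cst3, which other brain cells also make. Sparc was 12.09, 12.35 and 12.42 against 12.72, 12.80 and 12.82 and Cst3 12.12, 12.02 and 12.55 against 12.82, 12.90 and 12.95, among the brightest signals of both groups. Cst3 was called lower without Ly6C-high replicate 3 (adjusted p = 0.0256). With 4 arrays in the fit, 13 endothelial markers rose and 5 microglial markers fell. The call was lost in at least 1 fit of 5 arrays for Pecam1 (without Ly6C-low replicate 2, adjusted p up to 0.0521) and for Sox17 and P2ry12 (without Ly6C-low replicates 2 or 3, adjusted p up to 0.0806). Fits of 5 arrays lost the call of Slc2a5 (without Ly6C-high replicates 1, 2 or 3 or Ly6C-low replicates 1, 2 or 3, adjusted p up to 0.116) and of Aif1 (without Ly6C-low replicates 1, 2 or 3, adjusted p up to 0.124).

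Among vessel genes, capillary markers were raised, and most markers of larger vessels did not pass. Of 12 measured capillary genes 10 rose and 1 fell, with a median difference of 3.92. Of 14 arterial genes 2 rose and none fell (median 0.44), and of 10 venous genes 1 rose and 2 fell (median 0.09). Over all genes 3.03% rose and 7.19% fell. Mfsd2a, the lipid carrier that limits vesicle transport across the barrier, was 10.12, 10.999 and 10.87 against 6.09, 5.83 and 5.79. The chemokine Cxcl12 was 9.01, 10.29 and 10.29 against 5.92, 5.56 and 5.33. Rgcc, a cell cycle regulator of endothelium, was 8.95, 8.80 and 9.18 against 6.75, 6.79 and 6.79. These 3 genes had the groups at least 2 units apart. Slc16a1, the lactate and ketone carrier, was 7.27, 8.48 and 9.65 against 6.51, 6.74 and 6.54, spread over more than 2 units in the Ly6C-high group, and did not pass (adjusted p = 0.0974), but was called without Ly6C-high replicate 1 (adjusted p = 0.024). The capillary gene that fell was Ivns1abp, a Kelch family protein (10.08, 10.19 and 10.57 against 11.39, 11.49 and 11.43).

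Arterial genes were present in both groups. Mgp, a matrix inhibitor of calcification, was 9.57, 9.16 and 10.46 against 10.90, 10.67 and 8.19, with its highest values on Ly6C-low arrays. Fbln5, an elastic fibre protein, was 6.30, 6.16 and 6.41 against 7.44, 6.77 and 6.16. Cytl1, a secreted protein, was 6.55, 5.79 and 7.85 against 8.88, 7.77 and 6.49. In all 3, Ly6C-low replicate 1 was the highest of the 6 arrays and replicate 3 the lowest of its group. The Notch target Hey1 was 11.32, 8.40 and 8.30 against 6.84, 6.16 and 5.83, higher on every Ly6C-high array, and did not pass (adjusted p = 0.0728), but was called without Ly6C-high replicate 1 (adjusted p = 0.0262). The arterial genes that rose were Tgfb2, a TGF-beta ligand (7.54, 8.23 and 8.76 against 6.04, 5.901 and 5.64, 2.32 ± 0.31), and the netrin receptor Unc5b (7.15, 6.82 and 8.22 against 5.57, 5.02 and 5.22, 2.13 ± 0.37). The list mean was 7.36, 7.09 and 7.61 against 7.19, 6.56 and 6.04, so Ly6C-low replicate 1 lay within the Ly6C-high range. Among venous genes the amino acid carrier Slc38a5 rose (7.81, 8.92 and 8.36 against 6.22, 5.67 and 5.27). Nr2f2, the factor of venous identity, was 6.50, 7.20 and 8.17 against 6.90, 6.27 and 5.64, with overlapping groups. Vwf, a clotting protein of larger vessels, was 8.24, 7.37 and 8.50 against 8.01, 7.32 and 6.52, also with overlap. The adhesion molecule Icam1 fell (8.47, 8.96 and 9.04 against 10.02, 10.52 and 10.44), and the cytokine receptor chain Il6st fell by a smaller amount (-0.65 ± 0.11). Both are made by leukocytes as well. The difference between the capillary, arterial and venous lists was not tested. By the fit of 4 arrays, 8 capillary genes and no arterial or venous gene rose. A fit of 5 arrays missed the threshold for Ivns1abp and Icam1 (without Ly6C-low replicates 2 or 3, adjusted p up to 0.0542) and for Unc5b (without Ly6C-high replicate 1 or Ly6C-low replicates 2 or 3, adjusted p up to 0.0848). The threshold was missed with 1 array left out for Il6st (without Ly6C-low replicates 1, 2 or 3, adjusted p up to 0.0971).

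**Figure D4:**
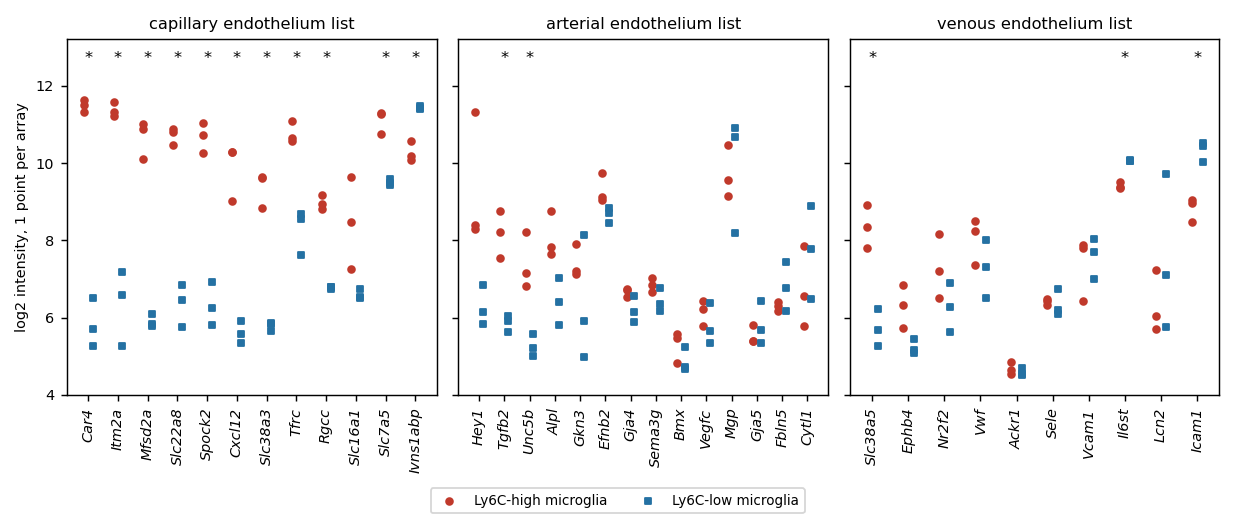
Log2 intensity of each measured member of the capillary, arterial and venous lists on the 6 microglia arrays (circles Ly6C-high, squares Ly6C-low, asterisk for an adjusted p under 0.05). Asterisks mark 11 of 12 capillary, 2 of 14 arterial and 3 of 10 venous genes.

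Of 12 genes of sprouting endothelium 5 rose and none fell (median 0.78). Dll4, the Notch ligand of tip cells, was 8.72, 9.08 and 9.39 against 6.77, 6.24 and 5.84. The growth factor binding protein Igfbp3 was 8.71, 8.48 and 9.23 against 7.08, 6.97 and 5.87, and the apelin receptor Aplnr 6.96, 8.70 and 8.81 against 6.18, 6.16 and 5.61. The angiopoietin Angpt2 was 7.02, 7.49 and 6.76 against 5.71, 5.74 and 5.75. These 4 genes were higher on every Ly6C-high array. Apln, the ligand of Aplnr, was 6.43, 6.56 and 6.32 against 6.35, 6.08 and 6.17 and did not pass. The tip cell marker Esm1 was 5.14, 5.64 and 6.01 against 4.86, 4.80 and 4.79, dim on the 6 arrays and not called, though it was without Ly6C-high replicate 1 (adjusted p = 0.0199). Cxcr4, the receptor of Cxcl12, was 9.16, 10.45 and 8.62 against 7.75, 7.87 and 8.11 (adjusted p = 0.0989), highest on the Ly6C-high array with the highest monocyte list, and was called without Ly6C-high replicate 2 (adjusted p = 0.0481) or 3 (adjusted p = 0.0499). Without Ly6C-low replicate 2 the count that rose was 1, without Ly6C-low replicate 3 it was 2, and in the fit of 4 arrays it was 2. No call resulted with 1 array left out for Igfbp3 (without Ly6C-high replicate 1 or Ly6C-low replicate 2, adjusted p up to 0.0553) and for Aplnr (without Ly6C-high replicates 2 or 3 or Ly6C-low replicates 1, 2 or 3, adjusted p up to 0.177). In fits with 1 array left out, the call was lost for Angpt2 (without Ly6C-low replicates 2 or 3, adjusted p up to 0.0563) and for Mcam (without Ly6C-high replicates 1, 2 or 3 or Ly6C-low replicates 2 or 3, adjusted p up to 0.149).

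Of 25 measured genes of transport across the barrier 18 rose and 1 fell (median 2.13). Slc2a1, the glucose carrier of the barrier, was 12.15, 12.14 and 12.17 against 10.61, 10.65 and 10.36, bright in both groups. The monocarboxylate carrier Slc16a4 was 8.95, 9.40 and 9.95 against 6.24, 5.92 and 6.08. The zinc importer Slc39a10 was 10.51, 10.66 and 11.03 against 7.12, 8.02 and 8.01. The arginine carrier Slc7a1 was 9.73, 10.20 and 9.99 against 6.89, 6.87 and 6.56, and for these last 3 genes more than 2 units lay between the groups. Slc7a5, the carrier of large neutral amino acids, rose (10.75, 11.29 and 11.26 against 9.43, 9.50 and 9.58). Its partner chain Slc3a2, which many cells use, was 9.11, 10.28 and 10.41 against 10.08, 10.34 and 10.14 and did not pass (adjusted p = 0.688). The list held both ends of iron transport. The transferrin receptor Tfrc rose (10.58, 10.65 and 11.09 against 7.62, 8.55 and 8.67), and the exporter Slc40a1 was 8.18, 8.74 and 9.64 against 8.26, 8.53 and 8.47, not called. The drug efflux pumps rose: Abcb1a was 10.62, 10.96 and 11.34 against 8.15, 7.61 and 6.71. Abcc4 was 7.99, 8.52 and 8.70 against 6.64, 6.19 and 5.998, and Abcg2 8.87, 8.998 and 9.52 against 7.64, 7.95 and 7.67. The insulin receptor Insr was 8.70, 9.48 and 10.67 against 9.15, 9.39 and 9.47, a Ly6C-high range that covers all Ly6C-low values. The organic anion carrier Slco2b1 fell (9.30, 8.78 and 9.39 against 10.57, 10.94 and 10.76, -1.60 ± 0.20), while its relative Slco1c1, a carrier of thyroid hormone, rose (11.06, 11.10 and 11.42 against 7.46, 6.04 and 5.69). In the fit of 4 arrays, 11 of the 25 rose. With 5 arrays in the fit, the call did not hold for Abcg2 (without Ly6C-low replicate 3, adjusted p up to 0.0606) and for Slc6a6 (without Ly6C-low replicates 2 or 3, adjusted p up to 0.074). Leaving out 1 array ended the call of Abcc6 (without Ly6C-high replicate 2 or Ly6C-low replicates 1, 2 or 3, adjusted p up to 0.116).

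Junction genes rose in 9 of 17 cases and fell in none (median 1.07). Cldn5, the main claudin of the barrier, was 10.71, 11.77 and 11.74 against 8.96, 8.13 and 7.56. Occludin, Ocln, was 8.36, 8.56 and 8.82 against 5.75, 5.68 and 5.72. Both are strand proteins of tight junctions, and Cldn5 spread more within each group. Esam, an adhesion molecule of endothelial junctions, was 9.43, 9.67 and 9.74 against 6.60, 6.01 and 5.47. Cgnl1, a scaffold of tight junctions, was 8.63, 8.80 and 8.84 against 6.55, 5.98 and 5.58. Lsr, which organises tricellular contacts, was 9.45, 9.87 and 10.01 against 7.79, 7.58 and 7.31. Among the members that did not pass, Tjp1, the scaffold ZO-1, was 9.78, 9.97 and 10.52 against 9.57, 9.58 and 9.67, and Jup, plakoglobin, 9.40, 9.33 and 10.25 against 9.52, 9.15 and 9.29. F11r, the junction molecule JAM-A of endothelium and leukocytes, was 8.08, 9.28 and 9.62 against 9.54, 10.002 and 10.26, with overlap. With 4 arrays in the fit, 5 of the 17 rose.

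Of 17 genes of Wnt signalling 9 rose and 1 fell (median 1.69). Apcdd1, a target and inhibitor of the pathway, was 10.64, 10.90 and 11.29 against 6.78, 6.50 and 6.35. Its transcription factor Lef1 was 10.05, 9.64 and 10.30 against 7.10, 6.26 and 6.07. Among the receptors, Tspan12, which assembles the norrin receptor, rose (8.71, 8.50 and 8.92 against 5.89, 5.60 and 5.24). Fzd4, the receptor it serves, was 6.61, 6.51 and 7.44 against 6.31, 6.45 and 6.25 and was not called. Fzd6 rose (8.39, 8.67 and 9.41 against 6.59, 5.88 and 5.53), and the co-receptor Lrp5 fell by a small amount (7.97, 7.86 and 7.89 against 8.64, 8.49 and 8.61). Adgra2, a co-receptor for Wnt7 ligands, rose (7.29, 8.08 and 8.52 against 6.49, 6.49 and 5.80), while its partner Reck was 6.77, 7.87 and 7.69 against 7.15, 6.43 and 6.04, with overlap. Among targets, Tnfrsf19 was 8.13, 8.71 and 8.67 against 6.42, 6.18 and 5.996. The feedback inhibitors Nkd1 and Axin2 rose, Nkd1 with 7.78, 7.51 and 7.78 against 6.29, 5.87 and 5.65 and Axin2 with 6.96, 7.92 and 7.78 against 6.10, 5.62 and 5.87. Ctnnb1, beta-catenin itself, was 9.79, 10.53 and 10.63 against 9.47, 9.94 and 9.69 and was not called, though it was without Ly6C-high replicate 1 (adjusted p = 0.0404). By the fit of 4 arrays, 6 of the 17 rose. An adjusted p above 0.05 with 1 array left out was found for Axin2 (without Ly6C-low replicates 2 or 3, adjusted p up to 0.0745) and for Adgra2 (without Ly6C-high replicates 2 or 3 or Ly6C-low replicates 1, 2 or 3, adjusted p up to 0.12). Without 1 of the 6 arrays, no call was made for Lrp5 (without Ly6C-low replicates 1, 2 or 3, adjusted p up to 0.095).

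Of 21 growth receptors, ligands and targets of vessels 13 rose and none fell (median 1.998). Kdr, the main VEGF receptor, was 9.23, 9.32 and 9.73 against 5.99, 6.13 and 5.55. Flt1, its decoy relative, was 11.42, 11.72 and 11.85 against 8.96, 7.83 and 6.68. Flt1 spread over more than 2 units within the Ly6C-low group and Kdr over less than 1. The angiopoietin receptor Tek was 9.69, 9.64 and 10.06 against 7.28, 6.45 and 5.27. Its phosphatase Ptprb was 10.26, 10.54 and 11.05 against 9.24, 7.88 and 6.28 and did not pass (adjusted p = 0.0584), but was called without Ly6C-low replicate 1 (adjusted p = 0.0243). The neuropilin Nrp1, a VEGF co-receptor, rose (8.73, 9.17 and 9.42 against 6.85, 7.55 and 6.92), and Nrp2 was 6.86, 7.10 and 7.14 against 7.31, 7.68 and 7.49, lower on every Ly6C-high array and not called. The Notch receptors and ligands were divided. Notch4, the endothelial Notch, rose (7.56, 7.79 and 7.48 against 6.63, 6.40 and 6.49), and Notch1 was 9.06, 8.82 and 8.82 against 8.70, 8.38 and 8.52, not called. The ligand Jag2 rose (8.12, 8.79 and 8.08 against 6.77, 6.28 and 5.93), and Jag1 was 6.13, 7.32 and 6.93 against 6.43, 6.04 and 5.72, with overlap. The growth factors Vegfa (7.18, 8.14 and 7.29 against 7.38, 7.41 and 7.52) and Vegfb (7.65, 7.27 and 7.82 against 8.16, 8.67 and 8.19) were not called. In the fit of 4 arrays, 7 of the 21 rose. The call was lost in at least 1 fit of 5 arrays for Jag2 (without Ly6C-low replicate 2, adjusted p up to 0.0521) and for Hes1 (without Ly6C-low replicates 2 or 3, adjusted p up to 0.0673).

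Of 16 genes of BMP and TGF-beta signalling 3 rose and 2 fell (median 0.22). The target Id1 was 9.69, 10.65 and 10.70 against 7.90, 7.09 and 6.90. The target Id3 was 10.15, 10.11 and 10.61 against 8.31, 6.81 and 6.50. Eng, an endothelial co-receptor of the pathway, rose as well (10.95, 11.20 and 11.03 against 9.61, 9.61 and 9.55). Their receptor Acvrl1 was 7.74, 8.97 and 9.11 against 7.87, 7.24 and 7.24 and was not called (adjusted p = 0.144), though it was without Ly6C-high replicate 1 (adjusted p = 0.0239). The inhibitor Smad7 fell (7.33, 7.54 and 8.38 against 9.30, 9.28 and 9.21), as did Tmem100, a membrane protein induced by BMP signals in vessels (5.26, 4.91 and 5.005 against 6.58, 8.02 and 7.45). With 4 arrays in the fit, 1 gene rose and none fell. Fits of 5 arrays lost the call of Id3 (without Ly6C-low replicate 2, adjusted p up to 0.0598) and of Tmem100 (without Ly6C-low replicate 3, adjusted p up to 0.064). A fit of 5 arrays missed the threshold for Smad7 (without Ly6C-high replicates 1 or 2 or Ly6C-low replicates 1, 2 or 3, adjusted p up to 0.0903).

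Of 22 endothelial transcription factors 15 rose and 1 fell (median 2.42). Sox18 was 10.82, 11.31 and 11.45 against 8.42, 7.31 and 6.75. Its relative Sox7 was 9.14, 9.20 and 9.60 against 6.62, 6.20 and 5.60, and Sox17 7.89, 8.95 and 9.77 against 6.49, 5.70 and 5.10. These 3 factors overlap in function in vessels, and in all 3 Ly6C-low replicate 1 was the highest of its group. Foxf2, a forkhead factor of brain vessels, was 8.10, 9.09 and 8.89 against 5.45, 5.55 and 5.09. Foxq1, another, was 9.58, 8.17 and 9.93 against 7.13, 6.46 and 6.07. Epas1, the hypoxia factor HIF-2 alpha, was 11.58, 11.78 and 12.09 against 10.12, 8.96 and 7.43, a range of more than 2 units in the Ly6C-low group. Ets1 was 9.16, 9.25 and 9.87 against 6.88, 6.53 and 6.41, with monocytes at 9.50 ± 0.15. Erg, a factor of endothelial identity, was 9.94, 8.95 and 9.64 against 7.47, 6.95 and 6.35, with monocytes at 6.998 ± 0.25. Neither Fli1 (8.09, 9.75 and 9.58 against 9.63, 10.19 and 10.13) nor Tal1 (7.52, 7.50 and 7.52 against 7.92, 7.93 and 7.73) passed. The flow-induced factor Klf2 was 9.13, 9.74 and 9.80 against 9.59, 9.09 and 9.25, with overlap. Hhex, known in early endothelium and in blood cells, fell (8.20, 7.94 and 7.83 against 8.91, 9.16 and 9.37). The count that rose was 8 without Ly6C-low replicate 2, 9 without Ly6C-low replicate 3, and 7 in the fit of 4 arrays. The threshold was missed with 1 array left out for Foxq1 (without Ly6C-high replicates 1 or 3 or Ly6C-low replicates 2 or 3, adjusted p up to 0.0995) and for Epas1 (without Ly6C-high replicates 1, 2 or 3 or Ly6C-low replicate 2, adjusted p up to 0.12). No call resulted with 1 array left out for Hhex and Sox17 (without Ly6C-low replicates 2 or 3, adjusted p up to 0.0806).

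Of 18 basement membrane genes 11 rose and 1 fell (median 1.24). The type IV collagen chain Col4a1 was 7.59, 8.01 and 8.65 against 6.61, 6.38 and 6.41. Its partner Col4a2 was 7.39, 7.33 and 7.47 against 6.83, 6.53 and 6.28. The laminin chain Lama4, of all vessels, was 6.78, 8.34 and 7.91 against 5.86, 5.36 and 5.30. Nidogen Nid1, which links laminin and collagen, was 7.82, 7.99 and 7.98 against 6.27, 5.74 and 5.51, and its relative Nid2 was 6.44, 6.70 and 6.70 against 6.65, 6.44 and 6.45, with overlap. The collagen receptor Itga1 was 8.30, 9.07 and 9.23 against 6.51, 5.51 and 4.98. Itgav, an integrin chain that activates TGF-beta, was the member that fell (6.80, 7.55 and 7.69 against 8.92, 9.48 and 9.63). The count that rose was 6 without Ly6C-high replicate 3, 4 without Ly6C-low replicate 2, 5 without Ly6C-low replicate 3, and 1 in the fit of 4 arrays. In fits with 1 array left out, the call was lost for Col4a1 and Itgav (without Ly6C-low replicates 2 or 3, adjusted p up to 0.078) and for Col4a2 (without Ly6C-high replicates 1 or 3 or Ly6C-low replicates 2 or 3, adjusted p up to 0.116). With 5 arrays in the fit, the call did not hold for Lama4 (without Ly6C-high replicate 3 or Ly6C-low replicates 1, 2 or 3, adjusted p up to 0.103).

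Of 11 genes of caveolae and vesicles 4 rose and 1 fell (median 0.78). Cav1, the core caveolin, was 10.08, 9.93 and 10.66 against 7.97, 7.19 and 5.88, and Cav2 7.78, 7.57 and 8.59 against 6.03, 5.23 and 4.73. Plvap, the diaphragm protein of leaky vessels, was 7.07, 6.46 and 7.75 against 6.77, 6.44 and 6.47, not called, and the 95% interval of its difference ran from -0.25 to 1.32. The clathrin heavy chain Cltc fell (9.32, 9.79 and 9.81 against 10.72, 11.04 and 10.97). The count that rose was 2 without Ly6C-high replicate 2, 2 without Ly6C-high replicate 3, 0 without Ly6C-low replicate 2 and 2 without replicate 3 of that group. Leaving out 1 array ended the call of Cav1 (without Ly6C-high replicate 1 or Ly6C-low replicate 2, adjusted p up to 0.0625) and of Cav2 (without Ly6C-low replicate 2, adjusted p up to 0.0598). An adjusted p above 0.05 with 1 array left out was found for Cltc (without Ly6C-low replicates 2 or 3, adjusted p up to 0.0563).

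**Figure D5:**
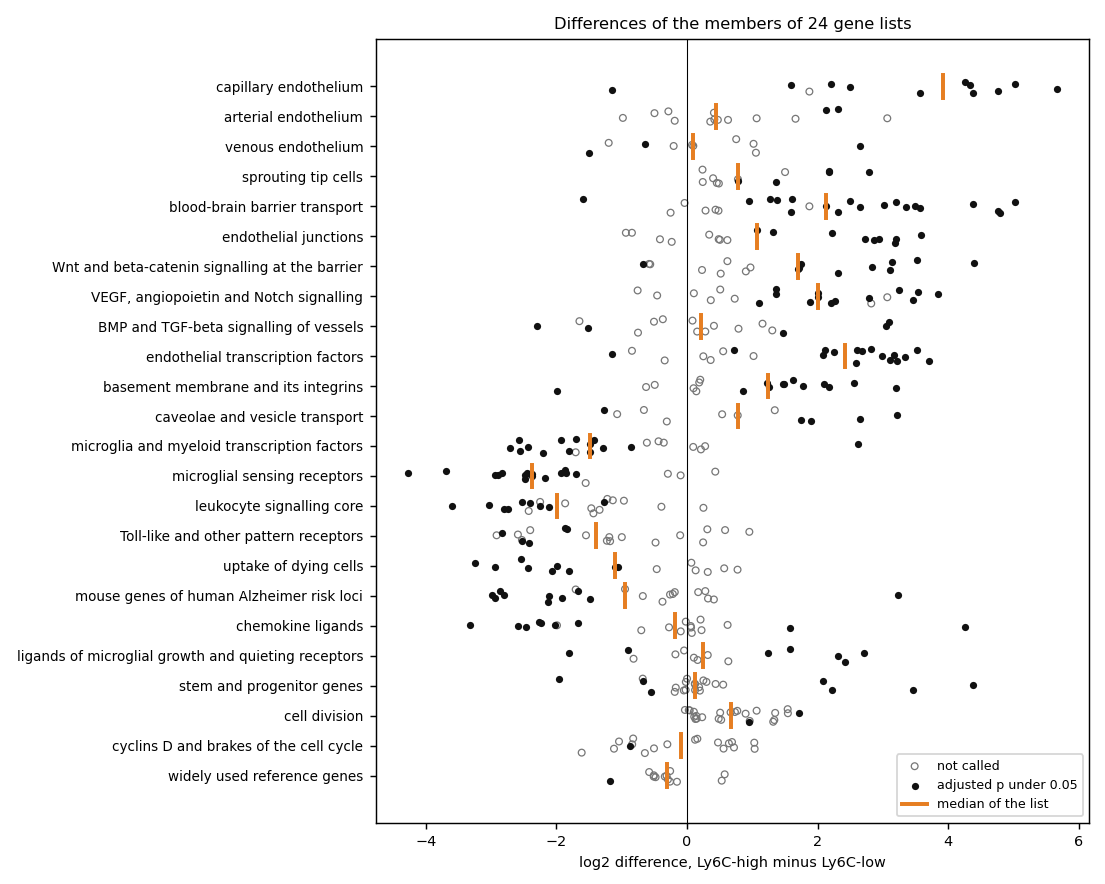
Log2 differences, Ly6C-high minus Ly6C-low, of the measured members of 24 gene lists, with members of adjusted p under 0.05 filled, others open and the list median as a bar. The medians of the vessel lists run from 0.09 (venous) to 3.92 (capillary), and the medians of the sensing receptors and the myeloid factors are -2.37 and -1.48.

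Of 19 measured sensing receptors 15 fell and none rose (median -2.37). P2ry12, through which microglia follow ADP to a lesion, was 8.06, 8.49 and 9.49 against 10.59, 11.39 and 11.40. P2ry6, which reads UDP from dying cells, was 7.63, 8.24 and 7.77 against 10.41, 10.86 and 10.84. The ATP channel P2rx7 was 7.85, 7.68 and 8.38 against 9.67, 10.02 and 10.01, and P2rx4 6.12, 7.23 and 6.75 against 8.65, 8.65 and 8.39. For P2ry12 the highest Ly6C-high array, replicate 3, was more than 1 unit below every Ly6C-low array. The ectonucleotidase Entpd1, CD39, was 8.34, 8.64 and 9.35 against 10.83, 11.45 and 11.47. Gpr183, a receptor of oxysterols, was 6.52, 7.34 and 7.72 against 9.82, 9.58 and 9.62. Ptafr, the receptor of platelet activating factor, was 6.54, 6.85 and 7.15 against 8.61, 9.35 and 9.12. Other receptors were uneven on the Ly6C-high arrays and did not pass. The complement receptor C5ar1 was 5.48, 7.002 and 7.51 against 7.63, 8.57 and 8.46 (adjusted p = 0.152). Csf2ra, a chain of the GM-CSF receptor, was 9.72, 8.83 and 7.33 against 8.52, 8.02 and 8.04. By the fit of 4 arrays, 6 of the 19 fell. Without 1 of the 6 arrays, no call was made for P2ry12, P2rx4 and Csf3r (without Ly6C-low replicates 2 or 3, adjusted p up to 0.0755) and for Cmklr1 (without Ly6C-high replicates 1 or 3 or Ly6C-low replicates 2 or 3, adjusted p up to 0.0898). The call was lost in at least 1 fit of 5 arrays for C3ar1 (without Ly6C-low replicates 1, 2 or 3, adjusted p up to 0.0873).

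Of 21 myeloid transcription factors 13 fell and 1 rose (median -1.48). Cebpa, a founding factor of granulocytes and macrophages, was 7.18, 7.61 and 7.16 against 9.70, 9.77 and 9.79. Runx1, a factor of blood cell origin, was 6.91, 8.67 and 6.57 against 9.91, 9.94 and 10.05. Irf8, needed for microglia, was 7.65, 8.42 and 8.29 against 9.43, 9.66 and 9.57, and Irf5 7.72, 8.64 and 7.96 against 9.78, 10.20 and 10.14. Spi1, PU.1 itself, was 7.56, 9.50 and 7.84 against 9.79, 10.18 and 10.04 and did not pass (adjusted p = 0.0928), but was called lower without Ly6C-high replicate 2 (adjusted p = 0.00415). In Runx1 and Spi1, Ly6C-high replicate 2 was at least 1 unit above the other Ly6C-high arrays, as it was in the classical monocyte list, and the part of monocyte RNA in these values was not tested. Mef2a, an activity-dependent factor, was 8.69, 9.39 and 10.03 against 10.96, 11.24 and 11.34. Mitf, a factor of lysosomes and pigment, was 6.34, 5.81 and 6.11 against 7.45, 7.71 and 7.54. Smad3, which carries TGF-beta signals, was 7.82, 7.82 and 7.72 against 8.82, 9.23 and 9.14. A pair of related clock-linked repressors moved in opposite directions. Bhlhe40 rose (9.93, 9.76 and 9.17 against 7.36, 6.93 and 6.72, 2.62 ± 0.26), with monocytes at 9.92 ± 0.60. Bhlhe41 fell (6.78, 5.44 and 7.34 against 8.89, 9.12 and 9.22, -2.56 ± 0.47), with monocytes at 5.64 ± 0.44. The immediate early factor Nr4a1 was bright and overlapped between the groups (11.66, 11.95 and 11.89 against 11.89, 11.64 and 11.69). The count that fell was 7 without Ly6C-high replicate 1, 8 without Ly6C-low replicate 1, 5 without Ly6C-low replicate 2, 5 without Ly6C-low replicate 3, and 6 in the fit of 4 arrays. Fits of 5 arrays lost the call of Runx1 (without Ly6C-high replicates 1 or 3 or Ly6C-low replicates 1, 2 or 3, adjusted p up to 0.12) and of Irf8 (without Ly6C-low replicates 2 or 3, adjusted p up to 0.0661). A fit of 5 arrays missed the threshold for Mef2a (without Ly6C-low replicates 1, 2 or 3, adjusted p up to 0.1) and for Bhlhe41 (without Ly6C-high replicate 1 or Ly6C-low replicates 1, 2 or 3, adjusted p up to 0.0928).

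Of 20 genes of leukocyte signalling 9 fell and none rose (median -1.99). Inpp5d, the phosphatase SHIP1, was 8.01, 8.73 and 8.62 against 11.18, 11.31 and 11.27. Pik3cg, a kinase chain downstream of chemokine receptors, was 6.56, 7.63 and 6.85 against 9.28, 9.67 and 9.70. Nckap1l, which drives actin assembly in blood cells, was 7.29, 8.85 and 9.30 against 11.40, 11.65 and 11.50. These 3 genes had their groups at least 1 unit apart. Several others were highest on Ly6C-high replicate 2 and did not pass. The adaptor Tyrobp was 10.80, 11.91 and 10.33 against 11.83, 12.03 and 12.07, with monocytes at 12.15 ± 0.04. The kinase Syk was 5.99, 8.17 and 6.48 against 8.80, 8.67 and 8.77, with monocytes at 10.13 ± 0.08. The exchange factor Dock2 was 6.06, 8.70 and 6.93 against 9.56, 9.67 and 9.73, with monocytes at 9.96 ± 0.14. Without Ly6C-high replicate 2, 16 of the 20 fell, among them Tyrobp (adjusted p = 0.013), Syk (adjusted p = 0.00367) and Dock2 (adjusted p = 0.0052). The count was 5 without Ly6C-low replicate 1, 4 without Ly6C-low replicate 2 and 4 without replicate 3 of that group. The threshold was missed with 1 array left out for Nckap1l (without Ly6C-low replicates 1, 2 or 3, adjusted p up to 0.0701).

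Of 20 pattern recognition genes 5 fell and none rose (median -1.39), and without Ly6C-high replicate 2, 10 fell. Nlrp3, a core of the inflammasome, was 7.68, 7.97 and 7.77 against 10.13, 10.20 and 10.34. The lipopolysaccharide receptor Tlr4 was 6.37, 6.61 and 6.07 against 8.26, 9.33 and 9.06. Cd14, its co-receptor, was 8.25, 10.84 and 8.73 against 11.33, 11.93 and 11.78, high on the array with the highest monocyte list, and did not pass (adjusted p = 0.0754), but was called lower without that array (adjusted p = 0.00415). The RNA sensor Tlr7 was 5.72, 6.64 and 6.93 against 8.73, 9.55 and 9.54, and Tlr3 6.69, 6.41 and 6.71 against 7.52, 8.998 and 8.80. Without Ly6C-low replicate 2 the count was 3, without Ly6C-low replicate 3 it was 3, and in the fit of 4 arrays it was 3. In the NADPH oxidase, which makes superoxide, 2 of 6 genes fell (median -0.79). The median was -1.69 without Ly6C-high replicate 2, where 3 fell, and -0.40 without Ly6C-high replicate 3, and 1 fell without Ly6C-high replicate 1, Ly6C-low replicate 2 or Ly6C-low replicate 3. The catalytic chain Cybb was 6.64, 10.23 and 6.92 against 6.90, 7.74 and 8.03, with monocytes at 11.52 ± 0.02. Its Ly6C-high replicate 2 stood above all other microglia arrays. The regulator Ncf1 fell (7.82, 8.46 and 7.64 against 10.07, 9.97 and 9.93), as did the proton channel Hvcn1 (6.05, 5.50 and 6.66 against 7.71, 8.76 and 8.52). No call resulted with 1 array left out for Tlr3 (without Ly6C-high replicates 1, 2 or 3 or Ly6C-low replicates 2 or 3, adjusted p up to 0.14) and for Tlr9 (without Ly6C-low replicates 2 or 3, adjusted p up to 0.0598). In fits with 1 array left out, the call was lost for Hvcn1 (without Ly6C-high replicate 1 or Ly6C-low replicates 2 or 3, adjusted p up to 0.0766).

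Of 15 genes for the uptake of dying cells 9 fell and none rose (median -1.10). Mertk, a receptor of apoptotic cells, was 7.97, 7.84 and 9.36 against 11.25, 11.29 and 11.45. Its relative Axl was 7.15, 6.61 and 7.27 against 8.07, 8.07 and 8.07. Of their bridging ligands, Pros1 fell (7.43, 7.93 and 8.55 against 9.47, 10.08 and 9.77) and Gas6 was 9.06, 8.34 and 9.12 against 8.56, 8.83 and 8.19, not called. The integrin chain Itgb5 was 7.97, 8.40 and 8.92 against 11.86, 11.64 and 11.53, with more than 2 units between the groups. The lipid exporter Abca1 was 7.31, 7.46 and 8.07 against 9.89, 10.12 and 10.12. Mfge8, which bridges dying cells to integrins, was 7.29, 6.93 and 8.29 against 7.004, 6.91 and 6.90 and was not called. The engulfment gene Elmo1 fell (7.61, 8.69 and 9.09 against 10.93, 11.06 and 11.04), and Dock1, which works with it, was 7.18, 8.13 and 8.08 against 7.08, 7.24 and 6.75, with overlap, and was called without Ly6C-high replicate 1 (adjusted p = 0.0279). The count that fell was 4 without Ly6C-low replicate 2, 4 without Ly6C-low replicate 3, and 2 in the fit of 4 arrays. With 5 arrays in the fit, the call did not hold for Axl (without Ly6C-low replicates 1, 2 or 3, adjusted p up to 0.0931) and for Pros1 and Elmo1 (without Ly6C-low replicates 2 or 3, adjusted p up to 0.0782).

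Mouse counterparts of genes at human Alzheimer risk loci fell in 9 of 21 measured cases and rose in 1 (median -0.95). Bin1, which shapes membranes in endocytosis, was 7.27, 6.96 and 6.86 against 10.02, 9.97 and 10.08 (-2.995 ± 0.14, adjusted p = 0.000712), and it was among the 10 steadiest falls of all genes. Trem2, a lipid receptor of microglia, was 7.91, 7.46 and 8.11 against 10.54, 11.12 and 10.65. The sialic acid receptor Cd33 was 7.79, 8.50 and 9.15 against 10.84, 11.66 and 11.54, and the actin regulator Abi3 8.80, 8.09 and 8.23 against 10.42, 10.52 and 10.59. The focal adhesion kinase Ptk2b was 7.12, 7.40 and 6.89 against 8.81, 8.66 and 8.94. For these 5 genes the groups stood at least 1 unit apart. Fermt2, an integrin activator of adherent cells, rose (9.11, 9.55 and 9.38 against 6.72, 6.08 and 5.57, 3.22 ± 0.30). Apoe, the lipid carrier, was bright in both groups (11.31, 11.57 and 12.24 against 12.63, 12.64 and 12.70) and did not pass (adjusted p = 0.0634), but was called without Ly6C-high replicate 3 (adjusted p = 0.0122). Clu, clusterin, was 8.60, 8.01 and 8.48 against 9.03, 8.19 and 7.36, with overlap. The sorting receptor Sorl1 was 6.52, 7.25 and 6.17 against 6.28, 6.21 and 6.63, with monocytes at 9.43 ± 0.03. Leaving out 1 array ended the call of Plcg2 (without Ly6C-high replicates 1 or 3 or Ly6C-low replicates 1, 2 or 3, adjusted p up to 0.121) and of Mef2c (without Ly6C-high replicate 1 or Ly6C-low replicates 2 or 3, adjusted p up to 0.0831).

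Of 20 chemokine ligands 2 rose and 7 fell (median -0.19). Ccl12, a monocyte attractant, was 6.99, 6.75 and 6.75 against 9.72, 10.51 and 10.25, with monocytes at 4.47 ± 0.26. Ccl7 was 6.11, 6.20 and 6.35 against 9.13, 9.42 and 7.89. Ccl3, which microglia release on alarm, was bright in both groups (11.01, 10.87 and 10.63 against 12.20, 12.68 and 12.65), and so was Ccl4 (9.91, 9.61 and 9.98 against 11.83, 11.89 and 11.84). Cxcl2, a neutrophil attractant, was 6.95, 11.09 and 7.81 against 10.41, 10.76 and 10.66, and its highest value lay on Ly6C-high replicate 2. Ccl6 showed the same pattern (5.58, 9.61 and 6.67 against 7.45, 8.10 and 8.42), and neither was called. Cxcl2 was called lower without Ly6C-high replicate 2 (adjusted p = 0.00543), and the list median was then -0.38. The members that rose were Cxcl12 and the membrane-bound Cx3cl1 (7.32, 7.95 and 8.52 against 6.78, 6.14 and 6.16). Cx3cr1, the receptor of Cx3cl1 on microglia, fell (10.41, 10.67 and 10.99 against 12.52, 12.55 and 12.55). Without Ly6C-low replicate 2, 4 chemokines fell, and without Ly6C-low replicate 3 also 4. An adjusted p above 0.05 with 1 array left out was found for Ccl2 (without Ly6C-high replicate 1 or Ly6C-low replicates 2 or 3, adjusted p up to 0.113) and for Cxcl10 (without Ly6C-high replicates 1 or 2 or Ly6C-low replicates 1, 2 or 3, adjusted p up to 0.158). Without 1 of the 6 arrays, no call was made for Cxcl16 (without Ly6C-low replicates 2 or 3, adjusted p up to 0.0585) and for Cx3cl1 (without Ly6C-high replicates 2 or 3 or Ly6C-low replicates 1, 2 or 3, adjusted p up to 0.147).

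Of 14 ligands for receptors of microglia and progenitors 5 rose and 2 fell (median 0.24). Kitl, stem cell factor, was 9.05, 9.26 and 9.82 against 6.96, 6.96 and 6.96. Cd200, which quiets microglia, was 8.43, 8.15 and 8.80 against 6.12, 5.81 and 5.31. Flt3l, a growth factor of dendritic cells, was 8.13, 8.66 and 8.17 against 7.32, 6.78 and 7.17. Kitl and Cd200 are known on endothelium, and both had the groups at least 2 units apart. Of the ligands of Csf1r, Csf1 fell (7.50, 7.57 and 7.71 against 8.63, 8.38 and 8.50) and Il34 was 6.19, 5.96 and 6.86 against 5.68, 5.88 and 5.55, not called. The TGF-beta ligand Tgfb1 was 8.36, 9.76 and 9.14 against 9.92, 9.87 and 9.93, not called with all 6 arrays but called without Ly6C-high replicate 2 (adjusted p = 0.0448), whereas Tgfb2, given above, rose. The count that rose was 3 without Ly6C-low replicate 2, 3 without Ly6C-low replicate 3, and 2 in the fit of 4 arrays. The call was lost in at least 1 fit of 5 arrays for Flt3l (without Ly6C-low replicates 2 or 3, adjusted p up to 0.0754) and for Csf1 (without Ly6C-low replicate 3, adjusted p up to 0.0584).

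Of 23 stem and progenitor genes 4 rose and 3 fell (median 0.12). Prom1, CD133, was 9.43, 9.97 and 10.07 against 5.81, 5.59 and 4.95. Nestin, Nes, was 7.45, 7.17 and 6.97 against 5.12, 4.92 and 4.91. The angiopoietin receptor Tek and the factor Mecom (6.76, 7.26 and 8.49 against 5.97, 5.12 and 5.19) were the others that rose, and all 4 are also known in endothelium. Myc fell (7.73, 8.65 and 7.997 against 10.03, 10.14 and 10.08), as did the factor Hlf (6.26, 6.06 and 6.27 against 7.08, 6.67 and 6.88). The receptor Slamf1 fell at a low level (4.40, 4.36 and 4.44 against 4.99, 4.89 and 4.99). Kit, the receptor of stem cell factor, was 5.89, 5.57 and 5.81 against 5.79, 5.42 and 5.51, with monocytes at 7.97 ± 0.36. The surface marker Cd34 was 10.79, 11.11 and 11.14 against 10.32, 10.79 and 10.62, bright in both groups and not called. The pluripotency factors Sox2 (4.46, 4.45 and 4.33 against 4.74, 4.32 and 4.33), Nanog (5.54, 5.22 and 5.26 against 5.54, 5.24 and 5.31) and Pou5f1 (5.47, 4.85 and 4.82 against 4.83, 4.75 and 4.68) were below the median of all gene means (6.13) on every microglia array and were not called. The count that fell was 1 without Ly6C-high replicate 2 or 3, and 1 without Ly6C-low replicate 1, 2 or 3. Fits of 5 arrays lost the call of Mecom (without Ly6C-high replicate 2 or Ly6C-low replicates 1, 2 or 3, adjusted p up to 0.162) and of Hlf (without Ly6C-high replicates 1, 2 or 3 or Ly6C-low replicates 1, 2 or 3, adjusted p up to 0.161). A fit of 5 arrays missed the threshold for Slamf1 (without Ly6C-high replicates 2 or 3 or Ly6C-low replicates 1, 2 or 3, adjusted p up to 0.14).

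Cell division genes stood highest on Ly6C-high replicate 2. Of 25 measured, 2 rose and none fell (median 0.67, and 0.28 without Ly6C-high replicate 2), and the list mean was 6.39, 7.39 and 6.11 against 5.89, 5.92 and 6.02, with 6.75 to 7.57 in monocytes. The difference was positive in 24 and negative in 1. In 10 every Ly6C-high array was above every Ly6C-low array, against 12.9% of all genes. Mki67, the proliferation antigen, was 6.88, 9.69 and 6.30 against 6.36, 6.38 and 6.18. Top2a, a topoisomerase of dividing cells, was 6.44, 9.13 and 5.63 against 5.60, 5.43 and 5.53. The same array has the high classical monocyte mean, and the part of those cells was not tested. The genes that passed were Kif23, a kinesin of cell separation (6.93, 8.30 and 7.10 against 5.63, 5.72 and 5.84), and Mcm4, a chain of the replication helicase (6.55, 6.94 and 6.64 against 5.72, 5.71 and 5.84). The helicase chain Mcm2 was 6.66, 6.57 and 6.32 against 6.62, 6.28 and 6.33, and Mcm5 6.01, 6.59 and 6.39 against 6.45, 5.996 and 6.43, both with overlap. In the fit of 4 arrays, none passed. Of 18 cyclins D and brakes of the cell cycle Btg2 fell (11.005, 10.98 and 11.36 against 12.10, 11.94 and 11.92) and no other was called (median -0.09). Ccnd1, a cyclin of microglia, was 7.98, 9.18 and 8.80 against 9.66, 10.86 and 10.29 and did not pass (adjusted p = 0.058). The inhibitor Cdkn1b was 7.42, 8.35 and 9.79 against 9.19, 8.69 and 8.58, with overlap. The threshold was missed with 1 array left out for Kif23 (without Ly6C-high replicate 3 or Ly6C-low replicates 1, 2 or 3, adjusted p up to 0.124) and for Mcm4 (without Ly6C-low replicates 2 or 3, adjusted p up to 0.0665). No call resulted with 1 array left out for Btg2 (without Ly6C-low replicates 1, 2 or 3, adjusted p up to 0.0779).

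Markers of other vessel-wall and barrier cells gave few calls. Of 15 pericyte and smooth muscle genes 1 rose (median 0.74, and 0.37 without Ly6C-high replicate 3), Vtn, vitronectin of pericytes (9.06, 8.42 and 10.30 against 7.30, 7.04 and 6.60). All 15 differences were positive. In 6 of the 15 every Ly6C-high array was above every Ly6C-low array, against 12.9% of all genes. With array weights 4 rose. Pdgfrb, the receptor of pericytes, was 7.09, 7.02 and 8.84 against 6.77, 6.75 and 6.44. Rgs5, a regulator of G proteins in pericytes, was 9.77, 8.74 and 10.43 against 8.55, 8.02 and 6.42. In Vtn, Pdgfrb and Rgs5 Ly6C-high replicate 3 was the highest array. Acta2, smooth muscle actin, was 9.01, 9.78 and 10.03 against 9.66, 8.79 and 8.03, with overlap. Of 12 fibroblast genes 1 rose (median 0.09), Foxc1, a factor that brain vessels also use (7.57, 7.03 and 7.79 against 5.53, 5.24 and 4.88). The fibroblast collagen Col1a1 was 6.95, 6.58 and 6.65 against 6.89, 6.58 and 6.58, with overlap. Of 12 choroid plexus and ependymal genes none was called (median -0.19). Ttr, transthyretin of the choroid plexus, was 12.96, 12.52 and 12.36 against 13.02, 12.59 and 11.88, with monocytes at 5.17 ± 0.40. Sostdc1, another choroid gene, was 6.67, 6.96 and 6.82 against 8.78, 7.84 and 6.51, and its highest value, like that of Ttr, lay on Ly6C-low replicate 1. In fits with 1 array left out, the call was lost for Vtn (without Ly6C-high replicate 1 or Ly6C-low replicates 1, 2 or 3, adjusted p up to 0.135).

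Of 11 astrocyte genes the gap junction gene Gja1 rose (8.58, 8.60 and 8.75 against 7.09, 6.08 and 5.78) and the glutamate carrier Slc1a3 fell (6.02, 6.24 and 6.50 against 8.12, 8.41 and 8.40), with a list median of -0.03. The astrocyte filament Gfap was 5.05, 4.85 and 5.13 against 5.12, 5.05 and 4.96, with monocytes at 4.94 ± 0.07. Of 12 oligodendrocyte genes none was called (median 0.09). Of 13 neuronal genes Eno2 fell (5.57, 5.19 and 5.55 against 6.11, 6.22 and 6.54, median of the list 0.03). Defining markers of T and B cells stood below the level of the spleen sort. Cd3e of T cells was 6.16, 6.76 and 6.40 against 6.64, 6.21 and 6.05, with monocytes at 9.31 ± 0.21. The interleukin-7 receptor Il7r was the 1 call among 10 T cell genes (median 0.11) and fell (6.20, 5.89 and 6.34 against 8.90, 9.62 and 9.40). Ebf1, a factor of B cells and of stromal cells, was the 1 call among 9 B cell genes (median 0.15) and rose (9.20, 8.34 and 9.05 against 6.79, 5.05 and 5.12). The B cell antigen Ms4a1, CD20, was 4.47, 4.01 and 4.04 against 4.16, 3.79 and 4.12, with monocytes at 8.69 ± 0.49. Of 10 NK cell genes Klrd1 (-1.40) and Prf1 (-0.69) fell (median 0.09). Of 9 dendritic cell genes Siglech (-3.15), which microglia carry, and Itgax (-1.42) fell (median -0.10). With 5 arrays in the fit, the call did not hold for Gja1 (without Ly6C-low replicate 2, adjusted p up to 0.0537) and for Eno2 and Prf1 (without Ly6C-high replicates 1, 2 or 3 or Ly6C-low replicates 1, 2 or 3, adjusted p up to 0.151). Leaving out 1 array ended the call of Ebf1 (without Ly6C-high replicate 1 or Ly6C-low replicates 2 or 3, adjusted p up to 0.0625) and of Klrd1 (without Ly6C-high replicates 1 or 3 or Ly6C-low replicates 2 or 3, adjusted p up to 0.0964).

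Of 11 border macrophage genes the mannose receptor Mrc1 (5.64, 5.30 and 6.92 against 8.84, 9.41 and 8.08) and the scavenger receptor Stab1 (7.46, 7.38 and 7.72 against 9.70, 9.74 and 9.34) fell (median -0.51, and -0.33 without Ly6C-low replicate 2). Of 13 classical monocyte genes 1 rose (median 1.47), fibronectin Fn1 (10.75, 11.60 and 10.97 against 9.24, 8.20 and 6.79), which endothelium also makes. That median was 0.47 without Ly6C-high replicate 2 and 2.31 without Ly6C-high replicate 3. All 13 differences were positive. In 5 of the 13 every Ly6C-high array was above every Ly6C-low array, against 12.9% of all genes. Ccr2, the defining chemokine receptor, was 7.62, 9.92 and 6.20 against 5.88, 6.91 and 6.54. Hp, haptoglobin, was 6.88, 10.40 and 6.19 against 5.53, 5.83 and 7.51. Both were highest on Ly6C-high replicate 2. Of 15 neutrophil genes Retnlg and the receptor Csf3r (7.79, 8.98 and 8.09 against 10.29, 10.80 and 10.91) fell (median -0.82). This median was -0.11 without Ly6C-low replicate 3, which has the highest neutrophil list, and -1.25 without Ly6C-low replicate 1. Of 9 red cell and platelet genes Tfrc rose (median 0.20). A probe set shared by several beta globin genes, outside this list, was also higher in a fit over all probe sets (adjusted p = 0.0331). It read 10.999, 10.91 and 11.55 against 9.34, 7.86 and 9.09, with monocytes at 11.97 ± 0.33. An adjusted p above 0.05 with 1 array left out was found for Mrc1 (without Ly6C-high replicate 1 or Ly6C-low replicates 1 or 2, adjusted p up to 0.0801) and for Fn1 (without Ly6C-high replicates 1, 2 or 3 or Ly6C-low replicate 2, adjusted p up to 0.103). Without 1 of the 6 arrays, no call was made for Csf3r (without Ly6C-low replicates 2 or 3, adjusted p up to 0.0519).

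Of 13 widely used reference genes Polr2a, a chain of RNA polymerase, fell (8.68, 9.10 and 9.15 against 9.67, 10.36 and 10.46) and no other was called (median -0.31). Actb, actin, was 12.93, 13.08 and 13.04 against 13.10, 13.22 and 13.20, and the 95% interval of its difference ran from -0.43 to 0.12. B2m, the light chain of MHC class I, was 11.87, 12.13 and 12.05 against 12.24, 12.39 and 12.20, with an interval from -0.57 to 0.05. Hprt, a purine salvage enzyme, was 7.80, 9.53 and 8.87 against 8.84, 9.06 and 9.17, lowest on Ly6C-high replicate 1. The call was lost in at least 1 fit of 5 arrays for Polr2a (without Ly6C-high replicates 1, 2 or 3 or Ly6C-low replicates 2 or 3, adjusted p up to 0.141).

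The steadiest differences, by moderated t, were often of middle size. Ndnf, a secreted neuron-derived factor, was 8.75, 8.96 and 8.94 against 5.23, 4.96 and 4.88. Plscr2, a phospholipid scramblase, was 7.65, 7.68 and 7.73 against 4.64, 4.41 and 4.52. Tdrp was 8.24, 8.27 and 8.34 against 5.28, 5.31 and 4.98, and the protease Capn2 8.93, 8.84 and 8.95 against 6.74, 6.65 and 6.55. For these 4 genes each group spanned less than 0.5 units. In the lower direction the organic anion pump Abcc3 was 6.40, 6.45 and 6.42 against 9.92, 10.28 and 10.18. The actin bundler Fscn1 was 6.98, 6.98 and 6.89 against 10.08, 10.02 and 10.35, and the G protein Gna15 5.89, 5.89 and 5.63 against 8.86, 9.13 and 9.05. Atp8a2, a lipid flippase, was 5.92, 5.83 and 6.06 against 9.14, 8.72 and 9.02, with monocytes at 5.63 ± 0.19. Rapgef5, an activator of Rap, was 7.65, 7.78 and 7.65 against 9.87, 9.80 and 9.79, with monocytes at 4.91 ± 0.14. Monocytes stood below the Ly6C-high arrays for these last genes.

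The genes with the largest spread within a group pointed to single arrays. S100a8, a protein of neutrophils and monocytes, was 5.29, 11.75 and 7.93 against 8.78, 9.10 and 12.16. The interferon-induced Ifi27l2a was 8.52, 12.32 and 6.29 against 7.62, 8.13 and 7.70. Hpse, heparanase, was 4.95, 9.37 and 4.49 against 4.73, 5.17 and 4.92, with monocytes at 9.02 ± 0.11. Within the Ly6C-high group replicate 2 was the high array for all 3. Myo9a, a myosin, was 3.58, 8.91 and 9.46 against 7.88, 10.80 and 7.78. Dnajc13, a gene of endosomes, was 4.75, 8.35 and 10.10 against 10.41, 9.95 and 10.16. In both, Ly6C-high replicate 1 was the low array. Ngp, a granule gene of neutrophils, was 5.83, 6.01 and 5.76 against 6.43, 7.06 and 10.61, and Camp, another, 6.91, 7.13 and 7.21 against 6.49, 6.64 and 10.03. Nynrin was 5.76, 8.85 and 7.17 against 5.78, 6.33 and 9.91, high on the arrays with description number 11. None of these genes was called.

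Of 272 matched microRNA genes 2 rose and 3 fell, and 206 lay below the median of all gene means. Over all genes 3.03% rose and 7.19% fell, so calls were rarer among the microRNA genes than among all genes. The probe sets read RNA of the gene, not the mature product. Mir142, whose products are abundant in blood cells, fell (6.12, 5.94 and 5.83 against 7.68, 9.72 and 7.83, -2.45 ± 0.53, adjusted p = 0.038). Mir195a rose (6.79, 7.41 and 6.84 against 5.89, 5.85 and 5.99, 1.10 ± 0.19, adjusted p = 0.0178). Mir425 fell (6.01, 5.79 and 5.80 against 7.14, 6.66 and 7.09), as did Gm24148 (3.63, 3.54 and 3.63 against 4.34, 3.98 and 4.37), and Mir465 rose at a low level (5.43, 5.82 and 5.75 against 5.03, 4.58 and 5.05). Mir126a, an endothelial microRNA gene, was 3.03, 3.16 and 4.12 against 2.96, 3.03 and 2.91, among the lowest signals of the arrays, and was not called. Mature sequences from RefSeq are shown for the genes of the largest difference in each direction, with the seed (bases 2 to 8) in capitals. No seed is shared among them.
mmu-miR-142a-3p: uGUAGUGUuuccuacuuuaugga
mmu-miR-142a-5p: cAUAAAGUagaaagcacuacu
mmu-miR-195a-5p: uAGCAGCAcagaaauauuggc
mmu-miR-195a-3p: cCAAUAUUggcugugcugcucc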

How the data were processed

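RNA of sorted cells was labelled from 100 ng with Ambion and Affymetrix kits and hybridised to Affymetrix mouse gene arrays, per the labels' protocols, which give RNA integrity numbers of at least 9.2. The deposited values are log2 intensities of 34760 probe sets on 9 arrays, made by the authors with RMA and oligo, per the submitters' processing notes, with versions and settings not given in the sources used here. Array medians lay between 5.83 and 5.96, and no further scaling was applied. Near medians do not show a shared scale. Interquartile ranges over probe sets were 2.24 to 2.73 on Ly6C-high arrays, 2.70 to 2.86 on Ly6C-low arrays and 2.89 to 2.91 in monocytes. The part of this difference in the calls was not tested, and the share of higher calls under 2 other normalizations is given above. Of the probe sets, 21640 have 1 gene symbol in the platform annotation, 1321 several and 11799 none, and the brightest probe set per gene by its mean over the 9 arrays gave 19937 genes. Names kept the annotation's symbols after a match to the RefSeq gene table.

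Groups were taken from the titles. The Ly6C-high and Ly6C-low arrays were compared in R 4.3.3 with limma 3.58.1 (lmFit and eBayes, 3 arrays against 3, Benjamini-Hochberg adjustment over all 19937 genes). An exact permutation test of 3 arrays against 3 cannot give a p below 0.1, so none was used. The steps were also run on simulated data. The simulated noise was independent between genes, without the shifts of single arrays described above, so it does not show how the fit handles those. Named genes are the 25 largest differences in each direction and the 10 largest moderated t, among called genes without overlap, bright in the higher group (its mean not below the median of gene means) and without a predicted or clone-based symbol, together with the members of 42 gene lists (565 of 604 measured), the 10 genes of largest SD in each group and the sort antigens. MicroRNA genes were matched by symbol, and promoters by gene ID. The members and lists were chosen with earlier results of these data known. Members without a probe set of 1 symbol, such as Ly6a and Gapdh, were not analysed here.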

Additional observations from a re-analysis of the deposited data

How the results depend on the processing

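All 9 arrays in the fit gave 3080 calls, 2185 of them lower. Array weights gave 3327 calls, 1076 higher and 2251 lower, and 7712 intervals within 0.5 of 0, and leaving out dim genes 554 such intervals. With 1 array left out, calls ranged from 722 to 2158, higher calls from 257 to 697, lower calls from 449 to 1577, calls of at least 2-fold from 694 to 1671, and intervals within 0.5 of 0 from 2221 to 7847. The fit of 4 arrays (Ly6C-high replicates 1 and 3, Ly6C-low replicates 1 and 2), an alternative chosen after seeing the data, gave 460 calls, 171 higher and 289 lower, 460 of at least 2-fold, and 464 intervals. Of the 67 genes chosen by size, steadiness or as sort antigens, 46 kept their call in all 17 alternatives, 46 of 1139 gene and alternative pairs lost it, and none changed direction. Apart from the sort antigens, these genes were chosen as called and without overlap between the groups. Leaving out arrays cannot reverse such a difference, so the absence of reversals was largely fixed by that choice. Over all genes, 1 gene was called in the opposite direction without Ly6C-high replicate 1. The median difference over all genes, 0.05, was -0.19 with dim genes left out and -0.01 without Ly6C-high replicate 1. Of the 42 list medians 8 changed sign in at least 1 alternative, those of astrocyte, choroid plexus, dendritic cell, fibroblast, neuronal, NK cell and oligodendrocyte genes and of the cell cycle brakes, all between -0.19 and 0.09 with the 6 arrays, and their values over the alternatives ran from -0.89 to 0.19.

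Title numbers are not stated to pair the arrays. Deviations of arrays with the same title number correlated at 0.30, 0.15 and -0.03 over genes. Of the Ly6C-high arrays only replicate 1 correlated best with its own number. Arrays that share a description number correlated at 0.30 (replicates 1) and 0.21 (Ly6C-high replicate 2 with Ly6C-low replicate 3), each the highest value of that Ly6C-high array. The replicate block on title numbers gave 1721 calls, 1497 of them shared with the fit without it. A random block on the numbers in the descriptions gave 2688, which include all 2038. The cause of these changes was not tested. With 3 arrays a group, differences small against a median SD of 0.27 could not be detected.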

Other observations

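Of 1321 probe sets that name several genes, and so stand outside the gene counts, 7 were higher and 19 lower in a fit over all probe sets. In that fit 5.91% of all probe sets were called, a larger share than among these. These were examined after their values were seen. The beta globin probe set given above was among the 7 higher, and the 4 below were among the 19 lower. The probe set of the Bcl2a1 family, which protects leukocytes from death, read 8.66, 8.61 and 9.05 against 11.02, 11.55 and 11.63, with monocytes at 11.27 ± 0.26. The one shared by Capn3 and Ganc was 6.63, 6.26 and 6.68 against 9.05, 9.24 and 9.11, with monocytes at 6.29 ± 0.10. A probe set shared by the adenosine receptor Adora3, known from microglia, and Tmigd3 was 6.88, 6.41 and 7.08 against 8.89, 9.52 and 9.38. That of the secreted ribonucleases Rnase4 and Ang was 6.50, 7.83 and 7.41 against 9.31, 9.99 and 9.52. In these 4 the groups did not overlap, and which gene of each set carried the difference cannot be told apart.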
